A study of Mus musculus with 12 samples.

Results

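Fos, Fosb, Fosl1, Fosl2, Jun, Junb, Jund, Atf3 and Maff encode subunits of the transcription factor AP-1 and its close relatives. They were taken as a fixed list of 9 gene symbols among the 32285 genes counted, by name and not by a threshold on measured values, although earlier results of these data were known when the list was drawn up, and all 9 were found by symbol and passed the count filter in hepatocyte nuclei. Their RNA was followed in single-nucleus RNA sequencing of mouse liver, of freshly isolated liver cells and of cultured primary hepatocytes, with unspliced and spliced molecules counted separately.

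AP-1 is a dimer of basic leucine zipper proteins. Jun proteins can pair with each other, whereas Fos proteins need a Jun partner to bind DNA, and ATF3 and the small Maf proteins form further dimers within the wider family. Fos, Fosb, Jun, Junb and Atf3 are immediate early genes, transcribed within minutes of growth factor, calcium or stress signals without new protein synthesis, and their messages are short lived. In the liver they are known from partial hepatectomy and injury, when quiescent hepatocytes re-enter the cell cycle.

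The study compared Liver (L), Cell Suspension (CS) and Primary Hepatocytes (PH) from 8 wild-type mice on chow diet, each group having 8 samples and each mouse giving 1 sample per group. The labels give the strain as C57BL6J, and the methods of the study name C57BL/6NTac young adult males. L was a piece of the median lobe cut off after the liver had been flushed with a warm calcium-free buffer holding EGTA, so it was not untouched tissue. CS was taken after collagenase perfusion, straining, washing and centrifugation, and PH after attachment to collagen and 24 hours of culture in medium with dexamethasone and insulin, followed by detachment with trypsin. All groups therefore share the perfusion and the freezing, and PH also carries the detachment. Nuclei were tagged with hashtag antibodies, sorted and run in 6 pools that each held samples of several groups.

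The authors' table named 53467 nuclei, 20024 in L, 15049 in CS and 18394 in PH, and assigned each to a mouse and a cluster. Nuclei of the clusters named as hepatocytes, endothelial, Kupffer, stellate, biliary or leukocyte cells were used under those names. Clusters named as cultured cells were read as endothelial-like or stellate-like where the summed endothelial or stellate markers were at least 5 times the median of the cultured clusters, and otherwise as hepatocyte-like, which left 15166, 13339 and 16283 hepatocyte nuclei in L, CS and PH. The summed hepatocyte markers, albumin among them, were at 11602 to 17300 CPM (UMI counts scaled to the same library size) in hepatocyte nuclei of L, 12626 to 19352 in CS and 2051 to 6061 in PH. The PH range overlapped the 1207 to 4466 CPM of the same markers in the endothelial nuclei of PH, while endothelial markers were at 126 to 181 CPM in the PH hepatocyte nuclei and at 5445 to 9497 CPM in the endothelial nuclei of that group. Hepatocyte nuclei of a sample held 6872031 to 29023569 UMIs in L, 2104087 to 17452582 in CS and 9852007 to 21226254 in PH. Of the barcode sequences, 337 occurred in more than 1 pool and were kept as separate nuclei, and 276 PH nuclei lay outside the clusters named as cultured cells and 952 L or CS nuclei within them. Most of the latter, 166 L and 705 CS nuclei, were in a cluster of low depth, with a median of 1608 UMIs per nucleus. Nuclei with the hashtag CD2 were read as the CS sample of mouse 2.

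The promoters of Fos, Jun and Atf3 are shown because these genes rose together on isolation and each holds a short element of the cAMP response or AP-1 type close to its start. The sequences are the 250 bases before the RefSeq start in GRCm38.p6, read in the direction of the gene, with capitals marking the motif CGTCA, in either orientation, or TGACATCA.
Fos, chr12:85473640-85473889, plus strand: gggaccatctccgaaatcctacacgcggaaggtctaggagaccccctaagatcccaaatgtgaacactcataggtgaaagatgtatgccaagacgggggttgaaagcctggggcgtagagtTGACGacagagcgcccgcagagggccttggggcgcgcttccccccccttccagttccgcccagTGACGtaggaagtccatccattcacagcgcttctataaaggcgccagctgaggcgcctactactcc
Jun, chr4:95052223-95052472, minus strand: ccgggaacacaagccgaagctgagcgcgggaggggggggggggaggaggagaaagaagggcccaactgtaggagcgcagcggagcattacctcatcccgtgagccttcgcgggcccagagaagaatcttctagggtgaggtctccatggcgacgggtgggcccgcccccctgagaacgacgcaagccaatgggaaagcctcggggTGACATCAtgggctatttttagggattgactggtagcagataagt
Atf3, chr1:191183334-191183583, minus strand: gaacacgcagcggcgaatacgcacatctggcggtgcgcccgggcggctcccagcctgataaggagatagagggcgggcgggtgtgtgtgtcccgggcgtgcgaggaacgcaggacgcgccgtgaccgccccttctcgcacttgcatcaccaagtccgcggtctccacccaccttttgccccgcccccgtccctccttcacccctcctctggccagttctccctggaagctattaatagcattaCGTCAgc
In Fos, CGTCA began 129 and 66 bases before the start and TATAAA 33 bases before it. In Jun, TGACATCA began 45 bases before the start, and in Atf3 CGTCA began 7 bases before it. Both strands of 32851 promoter windows of this length were searched in the same way. CGTCA was present in 17.8% of them, TGACATCA in 2.93%, the full element TGACGTCA, which contains CGTCA, in 1.55%, the AP-1 element TGANTCA in 6.75%, TATAAA in 12.4% and the CArG box bound by serum response factor in 1.47%. Among the other members, Fosb held CGTCA from 60 bases and Junb from 106 bases before the start, and 2 of the listed Maff promoters held TGACGTCA or TGACATCA from 29 and 45 bases. None of these elements was in the windows listed for Fosl2 (chr5:32136222-32136471) and Jund (chr8:70697489-70697738). The RefSeq starts used here are not those of the gene spans given below for Fosl2, Atf3 and the 2 Maff promoters just named, whose windows lie inside the span. They also differ for Jund, whose window ends before the span begins, so for Jund nothing is said of the bases next to that start. The starts of Fosb and Junb differ too. The Fosb window (chr7:19310046-19310295) reaches into the gene span, and the Junb window (chr8:84978749-84978998) stops short of the coding transcript given below. No promoter was listed for Fosl1. A match of letters describes the sequence and not a bound site.

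Fos and Fosb, whose proteins need a Jun partner, were low in liver hepatocyte nuclei and highest in the cell suspension. Levels are CPM of all UMIs (spliced, unspliced and ambiguous) summed over the hepatocyte nuclei of a sample, with library sizes scaled by the trimmed mean of M-values (TMM). Fos (chr12:85473890-85477273) ranged from 2.70 to 5.53 CPM in L with a median of 3.89, from 207 to 516 CPM in CS with a median of 343, and from 26.6 to 48.4 CPM in PH with a median of 34.1 (n = 8 each). The groups did not overlap, CS was highest and PH lay between. Fos was thus 90.8-fold higher in CS than in L (log2 fold change 6.50 ± 0.21 SE, adjusted p = 9.6e-20, quasi-likelihood test of edgeR, p adjusted over all genes by the Benjamini-Hochberg method, as in all tests below unless another is named), and 9.21-fold higher in PH than in L (log2 3.20 ± 0.18, adjusted p = 1.48e-15). From CS to PH it fell by 3.30 ± 0.18 on the log2 scale (adjusted p = 4.48e-16). Fosb (chr7:19302696-19310051), a paralog of Fos, ranged from 0.548 to 1.93 CPM in L, from 87.8 to 433 CPM in CS and from 1.78 to 5.59 CPM in PH, with medians of 1.19, 256 and 3.31. CS stood apart from both other groups, and PH overlapped L. The difference of CS over L was 208-fold (log2 7.70 ± 0.37, adjusted p = 8.18e-16), the largest of the 9 genes, and the log2 value was 6.96 in sums thinned to equal depth. From CS to PH Fosb fell by 6.03 ± 0.33 on the log2 scale, and it stayed 3.19-fold above L (log2 1.67 ± 0.33, adjusted p = 6.91e-05, higher in 7 of 8 mice), which was not called in thinned sums (log2 1.00, adjusted p = 0.0896). Without the PH nuclei outside the clusters named as cultured cells and the L and CS nuclei within them, the log2 value of PH over CS was -6.65. The liver values are low in absolute terms: 483 Fos UMIs and 139 Fosb UMIs were counted over all liver hepatocyte nuclei. Barcodes with at most 100 UMIs, which are not nuclei and carry free RNA, held Fos at 30.5 to 125 CPM and Fosb at 12.2 to 61.3 CPM over the 6 pools. Both ranges lay above every liver sample. That of Fosb also lay above every PH sample, and that of Fos overlapped PH. The part of such RNA in the L and PH values was not tested, here or for the members below.

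The Jun genes, which encode the partners that Fos proteins require, rose on isolation from a higher starting level. Jun (chr4:95049034-95052222), the founding AP-1 subunit, was at 36.0 to 73.3 CPM in L with a median of 67.4, at 1261 to 3060 CPM in CS with a median of 1797, and at 141 to 247 CPM in PH with a median of 159. The groups did not overlap, in the order CS, PH and L. The fold change of CS over L was 34.7 (log2 5.12 ± 0.22, adjusted p = 5.95e-17), and that of PH over L was 3.02 (log2 1.59 ± 0.19, adjusted p = 1.26e-08). Junb, which can oppose Jun in some settings, was at 13.0 to 51.5 CPM in L, 201 to 457 CPM in CS and 47.2 to 88.2 CPM in PH. CS again stood apart, at 11.1-fold above L (log2 3.47 ± 0.23, adjusted p = 1.6e-12), whereas PH overlapped L and was 2.38-fold higher (log2 1.25 ± 0.21, adjusted p = 7.05e-06, higher in 7 of 8 mice). Jund (chr8:70698949-70700616), the member best known for steady expression in resting cells, was at 43.1 to 82.9 CPM in L, 278 to 579 CPM in CS and 59.8 to 151 CPM in PH. Jund did not overlap between L and CS, with a 7.02-fold difference (log2 2.81 ± 0.19, adjusted p = 4.51e-12). In PH it overlapped L, and the 1.41-fold difference (log2 0.49 ± 0.18, adjusted p = 0.0224, higher in 6 of 8 mice) was lost without mouse 5 (log2 0.46, adjusted p = 0.0532) or mouse 6 (log2 0.33, adjusted p = 0.129) and with the pool in the model (log2 0.33, adjusted p = 0.189). From CS to PH the log2 level fell by 3.52 ± 0.20 for Jun (adjusted p = 2.15e-15), by 2.22 ± 0.22 for Junb (adjusted p = 3.2e-10) and by 2.32 ± 0.19 for Jund (adjusted p = 7.16e-12). Low-UMI barcodes held Jun at 134 to 489 CPM, Junb at 30.5 to 143 CPM and Jund at 69.6 to 268 CPM over the pools.

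Atf3 and Maff, a stress-induced repressor of the ATF family and a small Maf protein without a transactivation domain, were both higher in CS and in PH than in L. Atf3 (chr1:191170296-191218039) ranged from 3.24 to 13.4 CPM in L with a median of 7.73, from 475 to 1776 CPM in CS with a median of 1087, and from 67.0 to 123 CPM in PH with a median of 92.9. No sample of any group overlapped another group. Atf3 was 140-fold higher in CS than in L (log2 7.13 ± 0.34, adjusted p = 7.84e-16) and 12.1-fold higher in PH than in L (log2 3.60 ± 0.29, adjusted p = 3.57e-12; 2.88 with the pool in the model). It fell by 3.53 ± 0.28 on the log2 scale from CS to PH (adjusted p = 4.22e-12). Maff (chr15:79346621-79359076) was at 3.89 to 16.8 CPM in L, 51.6 to 247 CPM in CS and 49.4 to 84.2 CPM in PH, with medians of 4.63, 104 and 71.5. CS and PH both stood above L without overlap but overlapped each other. The difference was 14.3-fold for CS over L (log2 3.83 ± 0.33, adjusted p = 3.87e-10) and 8.47-fold for PH over L (log2 3.08 ± 0.32, adjusted p = 8.96e-10). The fall of 0.75 ± 0.29 on the log2 scale from CS to PH (adjusted p = 0.0301, lower in 7 of 8 mice) was lost without mouse 4, whose CS sample held the 247 CPM (log2 -0.41, adjusted p = 0.217), or without mouse 3 (log2 -0.72, adjusted p = 0.0542). Low-UMI barcodes held Atf3 at 32.6 to 342 CPM and Maff at 4.07 to 85.7 CPM.

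Fosl1 and Fosl2, the Fra proteins that lack the transactivation domain of Fos and are typically induced later, had their highest levels in culture rather than in the cell suspension. Fosl1 (chr19:5447547-5455946) was at 0.100 to 0.645 CPM in L, 0.253 to 3.21 CPM in CS and 24.4 to 72.3 CPM in PH, with medians of 0.257, 1.48 and 42.0. Every PH sample lay above every sample of L and CS, which overlapped each other. Of the 6757 Fosl1 UMIs in PH, 6126 were unspliced and 282 spliced, so these levels stand mainly for unspliced RNA. Fosl1 was 149-fold higher in PH than in L (log2 7.22 ± 0.36, adjusted p = 8.52e-17), where the liver value rests on 37 UMIs over 8 samples and the log2 value was 6.19 with the pool in the model and 7.96 in thinned sums, and 25.1-fold higher in PH than in CS (log2 4.65 ± 0.32, adjusted p = 1.12e-13). Its 5.95-fold difference of CS over L (log2 2.57 ± 0.44, adjusted p = 4.9e-05, higher in 7 of 8 mice) rests on 103 UMIs in CS and was 1.83 on the log2 scale with the pool in the model. Low-UMI barcodes held Fosl1 at 0 to 36.3 CPM and Fosl2 at 12.3 to 71.5 CPM. Fosl2 (chr5:32135801-32157842) was at 7.79 to 24.1 CPM in L, 12.4 to 36.1 CPM in CS and 47.0 to 87.5 CPM in PH, with medians of 10.8, 17.0 and 63.7. PH again lay above both other groups without overlap. Fosl2 was 5.17-fold higher in PH than in L (log2 2.37 ± 0.21, adjusted p = 3.91e-11) and 3.42-fold higher than in CS (log2 1.77 ± 0.21, adjusted p = 1.66e-08). The 1.51-fold difference of CS over L (log2 0.59 ± 0.21, adjusted p = 0.0405, higher in 8 of 8 mice) was near the threshold, and its call was not stable. The adjusted p rose to at most 0.0971 when any mouse but mouse 3 was left out and to 0.232 with the pool in the model (log2 0.42). Leaving out each mouse in turn gave log2 values of 0.56 to 0.63.

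**Figure D1:**
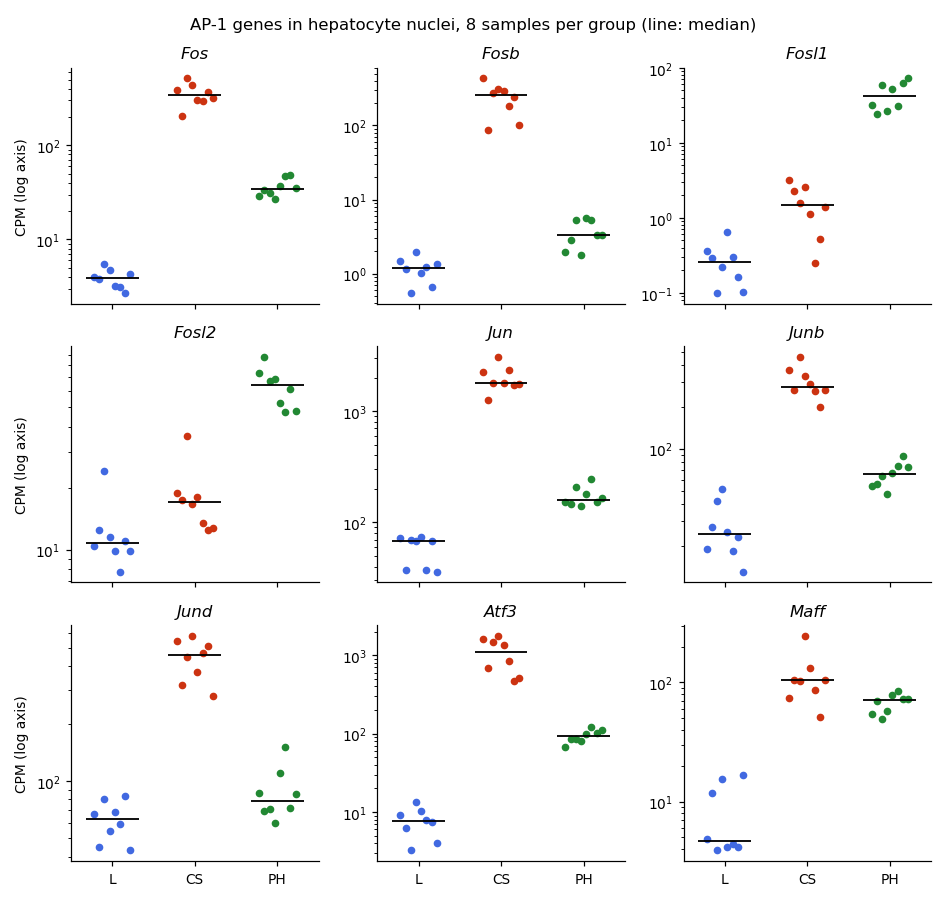
TMM-scaled CPM of the 9 genes in hepatocyte nuclei on log axes, 1 panel per gene, with 1 point per sample (8 per group) and a line at the group median. Fos, Fosb, Jun, Junb, Jund and Atf3 peak in CS, Fosl1 and Fosl2 peak in PH, and Maff is raised in both, its CS and PH samples overlapping.

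Counted together, 9 of the 9 genes passed the test as higher in CS than in L and 0 as lower, against 8.15% and 14.2% of the 26778 genes tested, and their median log2 fold change was 3.83 against 0.02 over all genes. In PH over L all 9 were again called higher, against 27.4% of genes, with a median of 2.37 against 0.10. Some markers of other cell types were also higher in the PH hepatocyte nuclei. Summed stellate markers were at 18.7 to 46.1 CPM in L and 77.8 to 641 CPM in PH. In L and PH, endothelial markers were at 37.9 to 61.4 and 126 to 181 CPM, and leukocyte markers at 11.6 to 29.6 and 30.2 to 49.9 CPM. Kupffer markers, at 8.56 to 18.4 and 9.78 to 20.3 CPM, and biliary markers, at 148 to 212 and 176 to 243 CPM, overlapped. The part of such RNA in the PH over L changes was not tested. In PH over CS, 2 genes (Fosl1 and Fosl2) were called higher, against 26.9%, and 7 lower, against 23.5%, with a median of -2.32 against 0.02. These comparisons share their samples, so the calls of 1 are not independent of the others.

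Most of the pattern was also present within pools, where samples shared the droplet run. Each comparison of CS or PH with L within a pool had only 1 sample in at least 1 of its groups. In the 4 pools that held both groups, the difference of CS over L in log2(CPM + 0.5) was 5.91 to 6.89 for Fos, 4.72 to 5.65 for Jun and 5.91 to 7.36 for Atf3. For Fosb it was 6.17 to 7.64, for Maff 2.88 to 5.73, for Junb 2.41 to 3.69 and for Jund 2.56 to 3.06. All of these were above 0 in every pool, but Fosl1, at -0.12 to 1.42, and Fosl2, at -0.15 to 0.73, were higher in only 3 of the 4. In the 2 pools with both PH and L, Fosl1 differed by 5.24 to 5.83, Fosl2 by 2.46 to 2.52, Fos by 2.39 to 3.17 and Atf3 by 2.55 to 3.19, while Fosb at -0.09 to 1.62 and Junb at -0.12 to 1.42 did not keep 1 direction. Maff differed by 1.86 to 3.70 and Jun by 1.06 to 1.32, but Jund by only 0.13 to 0.18. The share of mitochondrial transcripts, a rough sign of cytoplasmic carry-over and RNA quality, also differed between groups, at 1013 to 1949 CPM in L, 1349 to 4570 in CS and 2285 to 4802 in PH hepatocyte nuclei, and its part in the levels was not tested.

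Genes whose profile over the 24 hepatocyte samples was most like those of Fos, Jun and Atf3 were found by the root mean square difference of centered log2(CPM + 1) over the 8608 genes averaging 10 CPM or more. The nearest non-members to Fos were Ier2, another immediate early gene, at 0.596, Actg1, cytoplasmic gamma actin, at 0.821, and the growth arrest gene Gadd45a at 0.851. For Jun they were Ier2 at 0.340, H3f3b, a replication-independent histone, at 0.523 and Gadd45a at 0.548. For Atf3 they were Actg1 at 0.949, Ier2 at 1.01 and the antiproliferative gene Btg2 at 1.05. Ier2 itself was at 13.0 to 24.3 CPM in L, 462 to 706 CPM in CS and 46.0 to 81.0 CPM in PH. The distance between members was 0.63 for Fos and Atf3, 0.67 for Fos and Jun and 0.81 for Jun and Junb, and 3.14 for Fos and Fosl1, farther than 8232 of the non-members. All of these distances rest on the same 3 groups of samples and describe them only.

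In single nuclei compared at equal depth, the members were found in a larger share of hepatocytes of the cell suspension than of the liver, and Jun in most nuclei of the suspension. To compare shares at 1 depth, each hepatocyte nucleus was thinned to 1000 UMIs, which left out 587 nuclei of L, 932 of CS and 293 of PH. Jun then had a UMI in 3.75% to 7.17% of nuclei per sample in L (median 5.68%), in 63.3% to 87.0% in CS (median 77.0%) and in 17.2% to 23.4% in PH (median 18.4%). Without thinning the medians were 29.3%, 90.6% and 58.3%, so the thinned shares are far below those at full depth. Atf3 was found in 0.29% to 1.65% of nuclei in L, 32.1% to 64.3% in CS and 7.83% to 12.0% in PH, and Fos in 0.32% to 0.78%, 16.7% to 33.7% and 3.25% to 5.77%. The 3 groups did not overlap for any of these genes. Jund, Junb and Fosb had CS medians of 31.1%, 21.7% and 15.8% against L medians of 5.39%, 2.10% and 0.18%. Maff and the Fra genes differed from this order, with PH medians of 8.86% for Maff, 7.87% for Fosl2 and 5.06% for Fosl1 against CS medians of 7.69%, 1.48% and 0.18%. By a two-sided exact permutation test of 8 samples against 8, adjusted over 27 comparisons, 9 genes were higher in CS than in L and 9 in PH than in L, and in PH over CS 2 were higher and 6 lower, while Maff differed by 0.42 percentage points (exact permutation test, adjusted p = 0.803). This test was run on the 9 genes alone, so no share over all genes stands beside its counts. For Fos, Jun and Atf3 the adjusted p in CS over L was 0.000182, from the smallest raw p of 0.000155 that 12870 permutations can give. Without thinning, among nuclei of at least 1000 UMIs, 47.3% of CS nuclei held Fos, Jun and Atf3 together, against 0.151% in L and 7.45% in PH, and 2.47%, 66.0% and 24.1% held none of them. The median depth of these nuclei was lowest in CS, at 3748 UMIs, against 7966 in L and 6171 in PH. No liver cell type is known to lack these genes, so the share due to free RNA has no direct reference here.

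**Figure D2:**
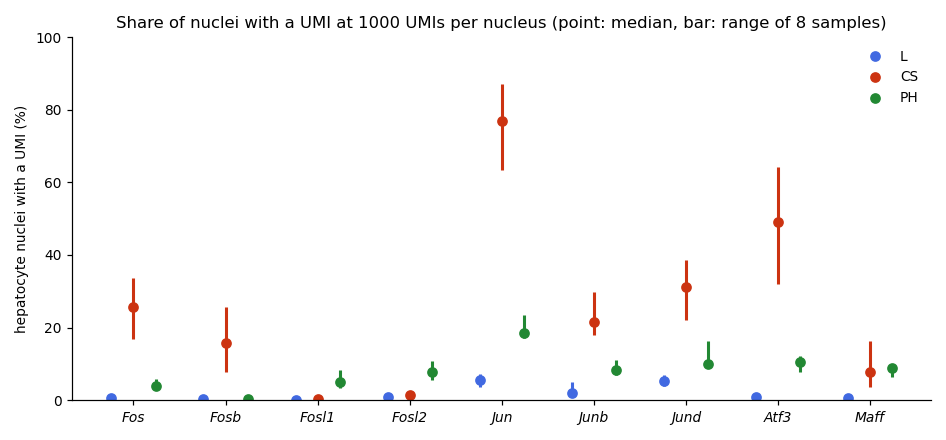
Share of hepatocyte nuclei with at least 1 UMI of each gene after thinning to 1000 UMIs per nucleus, in percent, with a point at the median and a bar from the lowest to the highest of 8 samples per group. Jun reaches a median of 77.0% in CS against 5.68% in L, and Fosl1 and Fosl2 are highest in PH.

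The few liver hepatocyte nuclei placed in clusters named as isolated hepatocytes had high levels of Fos, Jun and Atf3, at 81.9, 512 and 410 CPM. These 76 nuclei, 0.50% of liver hepatocyte nuclei, held 8.09% of the liver Atf3 UMIs, 3.31% of those of Fos and 1.31% of those of Jun. For Fosl2 (0.26%) and Jund (0.48%) the share of UMIs was not above that of nuclei. Their levels were higher, at 20.5 and 205 CPM against 11.0 and 58.6 CPM in the liver nuclei of clusters named simply as hepatocytes. In the liver nuclei of clusters named simply as hepatocytes, Fos was at 3.30, Jun at 53.6 and Atf3 at 6.42 CPM over all samples. Conversely, the 532 CS nuclei that lay in the liver-dominated hepatocyte clusters, 3.99% of CS hepatocytes, held Fos at 172, Jun at 945 and Atf3 at 547 CPM, above the liver nuclei of those clusters but below the 304, 1815 and 1050 CPM of the CS nuclei in clusters named as isolated hepatocytes. Junb and Jund had the same order. Fosl2 (32.1 against 13.9 CPM), Fosl1 (2.14 against 1.21), Fosb (216 against 212) and Maff (109 against 106) were instead higher in the 532 nuclei. The 750 CS nuclei in clusters named as cultured cells held Fos at 141, Jun at 691 and Atf3 at 323 CPM. Of these, 705 lay in a cluster of low depth, with a median of 1608 UMIs per nucleus. The clusters were made from these genes among others, so these values are a description. The paper names demultiplexing errors as a possibility for cultured nuclei that clustered with the other groups. Whether the L and CS nuclei described here were assigned to the wrong sample was not tested.

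Unspliced UMIs carry intron sequence and stand for nascent or nuclear pre-mRNA. Spliced UMIs stand for processed message only in genes with introns. In hepatocyte nuclei Jun and Jund, which are single-exon genes, held only spliced UMIs, namely 7661, 120653 and 26424 for Jun in L, CS and PH. Without an intron, nascent and processed RNA of a gene are both counted as spliced, so these counts cannot tell them apart. Atf3, whose annotated gene spans 47744 bases, was counted mainly as unspliced, with 892 unspliced and 59 spliced UMIs in L, 59722 and 6465 in CS and 10445 and 2555 in PH. Fos, with short introns, was counted mainly as spliced, with 347 spliced and 123 unspliced UMIs in L, 16262 and 3613 in CS and 4065 and 1331 in PH. Because the unspliced count of a gene depends on the length and priming sites of its introns, these ratios are compared between groups of 1 gene and not between genes. Fosb held many ambiguous UMIs, 8022 of the 14445 in CS. Junb has a coding transcript of 1 exon (chr8:84976910-84978718), and its only annotated intron is in a further transcript that begins downstream. Its unspliced UMIs were therefore not read as Junb pre-mRNA, although their positions were not examined. On the opposite strand, annotated genes overlap Jun (Junos), Jund (Gm11175), Junb (Prdx2), Atf3 (Gm24748) and Fosl1 (Ccdc85b), and the use of strand in the counting was not given in the sources used here, so counts in the shared stretches are uncertain.

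Tested apart, spliced and unspliced UMIs gave mostly the same calls. Among spliced UMIs, 8 members were higher in CS than in L, against 9.4% of genes. They include Jun, Junb and Jund, whose spliced UMIs do not set processed message apart from nascent RNA. Fosl1 did not pass (log2 1.65 ± 1.02, adjusted p = 0.272, and log2 0.88 with the pool in the model). It held 1 spliced UMI in L and 3 in CS, too few for the test to decide. With library sizes of all 3 states the genes called in this comparison went from 4692, of which 41.2% were higher, to 6274, of which 78.6% were higher, and the median of all genes from -0.07 to 0.28, with 8 members called higher there too. In PH over L, 8 were higher, against 29.9%, with Jund at log2 0.23 ± 0.19 (adjusted p = 0.297, but log2 0.49 and adjusted p = 0.0282 with library sizes of all 3 states, where the median of all genes moved from 0.05 to 0.28), and in PH over CS 2 were higher, against 31.1%, 6 lower, against 23.5%, and Maff was at 0.18 ± 0.26 (adjusted p = 0.58). With Junb left out for the reason above, 6 members had unspliced UMIs, and 5 of them were higher in CS than in L, against 8.68% of genes, with Fosl2 at 0.47 ± 0.25 (adjusted p = 0.179) not passing. With library sizes of all 3 states the unspliced calls in this comparison went from 5510, of which 35.6% were higher, to 6149, of which 21.1% were higher. With the replicate block, that is with samples paired by mouse, unspliced Fosl2 passed in CS over L (log2 0.44, adjusted p = 0.0431). All 6 were higher in PH than in L, against 27.1%, although unspliced Fosb (log2 1.26 ± 0.50, adjusted p = 0.0336), which rests on 22 UMIs in L and 63 in PH, was not called with the pool in the model (log2 1.06, adjusted p = 0.162) or with library sizes of all 3 states (log2 1.16, adjusted p = 0.0529). In PH over CS 2 were higher, against 26.3%, and 4 lower, against 23.0%. Unspliced Atf3 rose from 4.03 to 17.3 CPM in L to 668 to 2333 CPM in CS, and unspliced Fos from 0.761 to 2.64 CPM to 43.3 to 151 CPM, on the scale of unspliced UMIs alone, and neither gene overlapped between the groups.

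The test of the ratio itself asked whether the unspliced UMIs of a gene changed more or less than its spliced UMIs, relative to the average gene. In CS over L this could not be told from 0 for Fos (log2 -0.01, adjusted p = 0.994) and Atf3 (log2 0.02, adjusted p = 0.996). No standard error or interval is given for these values, because the derived standard error is unreliable where the change is very small. That the ratio was not called does not show that it was unchanged. Maff had a higher ratio in CS (0.71 ± 0.22, adjusted p = 0.0173; 8.54% of genes were higher), so of the 6 members without Junb 1 was higher, 0 were lower (13.5% of genes) and 5 were not called. In PH over L, Fos was higher (0.54 ± 0.20, adjusted p = 0.0369), against 16.2% of genes, while Atf3 (-1.34 ± 0.28, adjusted p = 0.000214) and Fosl2 (-0.55 ± 0.16, adjusted p = 0.00551) were lower, against 13.1%. In PH over CS, Fos was higher (0.56 ± 0.15, adjusted p = 0.00275), against 15.2%, and Atf3 (-1.36 ± 0.18, adjusted p = 2.19e-08) and Maff (-1.11 ± 0.16, adjusted p = 4.3e-07) were lower, against 9.71%. Counting ambiguous UMIs as spliced removed the PH over L calls of Fos (log2 0.44, adjusted p = 0.0834) and Fosl2 (log2 -0.27, adjusted p = 0.119).

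On its own scale, the unspliced share of the spliced and unspliced UMIs of Atf3 was 87.4% to 100% in L, 88.3% to 94.6% in CS and 74.6% to 85.4% in PH. PH lay below both other groups without overlap. It was lower by 13.8 percentage points than in L and by 10.9 points than in CS (two-sided exact permutation tests adjusted over 12, p = 0.000373 for both), while CS and L differed by less than the test could separate (exact permutation test, adjusted p = 0.106). Maff moved in the same direction, with 71.0% to 90.0% in L, 76.1% to 92.9% in CS and 63.5% to 73.8% in PH. Its share in PH was lower than in CS by 14.9 points (exact permutation test, adjusted p = 0.000373) and lower than in L by 12.2 points (adjusted p = 0.00249, exact permutation test). For Fos the shares were 15.4% to 37.4% in L, 14.3% to 26.7% in CS and 20.9% to 31.2% in PH, which overlapped in each comparison. The Fos share was higher by 5.92 points in PH than in CS (exact permutation test, adjusted p = 0.0200), and its differences from L were not called, at -5.99 points in CS (exact permutation test, adjusted p = 0.134) and -0.07 points in PH (exact permutation test, adjusted p = 0.983). The Maff share in CS was 2.74 points above that in L, which was not called either (exact permutation test, adjusted p = 0.425). For Fos in PH over L and Maff in CS over L the ratio test, which is relative to the average gene, and the share, which is not, thus gave different calls. The permutation test of the share did not pair samples by mouse. Fosl2, left out of this test because 1 CS sample held 18 UMIs, under the minimum of 20 in every sample, had shares of 56.3% to 76.6% in L, 37.3% to 61.1% in CS and 37.8% to 54.3% in PH, with PH and L apart. Over all genes the unspliced share also fell, from 78.5% to 83.8% in L to 68.3% to 77.5% in CS and 68.4% to 72.9% in PH, and these raw shares are not corrected for it, whereas the ratio test above is. CS and PH overlapped in the library share and not in that of Atf3.

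**Figure D3:**
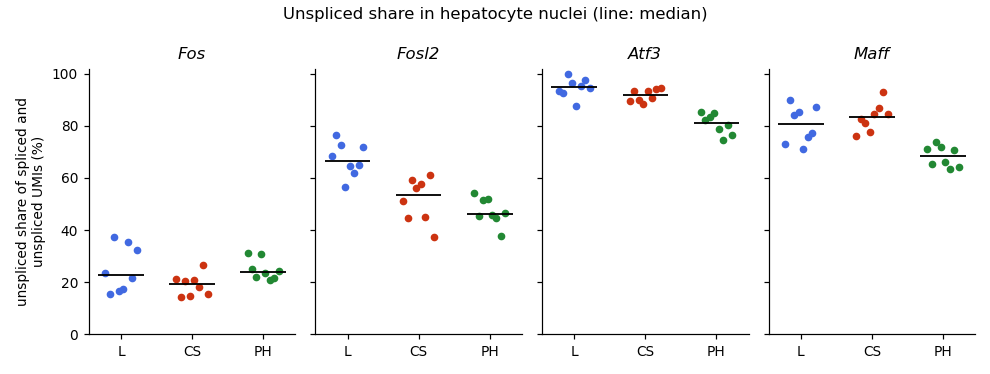
Unspliced UMIs as a percentage of spliced plus unspliced UMIs for Fos, Fosl2, Atf3 and Maff in hepatocyte nuclei, with 1 point per sample and a line at the group median. Atf3 has medians of 94.9% in L and 91.9% in CS against 81.3% in PH, and Fos overlaps in each comparison.

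The rise on isolation was not limited to hepatocytes. In bulk sums over all nuclei, where fewer cells of a type and less RNA per cell cannot be told apart, 9 members were higher in CS than in L, against 8.01% of genes, 9 in PH than in L, against 28.6%, and in PH over CS 2 were higher, against 27.4%, and 6 lower, against 23.4%, with Maff not passing (log2 -0.61 ± 0.30, adjusted p = 0.0954). In endothelial nuclei Jun rose from 15.2 to 38.6 CPM in L to 393 to 1467 CPM in CS, 26.4-fold (log2 4.72 ± 0.24, adjusted p = 7.4e-19), and Fos from 3.26 to 18.9 CPM to 153 to 610 CPM, 37.6-fold (log2 5.23 ± 0.35, adjusted p = 3.84e-15). Neither gene overlapped between the groups. Of the 9 members 7 were called higher in CS, against 2.03% of genes, the others being Fosl2 (log2 1.01 ± 0.32, adjusted p = 0.0653, and 0.0344 with the scaling of DESeq2) and Fosl1 (1.71 ± 0.70, adjusted p = 0.189). In the endothelial-like nuclei of PH, 9 members were above endothelial nuclei of L, against 15.4%, with Fosl2 at log2 3.20 ± 0.25, Fosl1 at 3.48 ± 0.50 and Maff at 3.39 ± 0.42, the last 2 of which were 2.73 and 2.09 with the pool in the model. In PH over CS of this type 2 members were higher, against 9.33%, 6 were lower, against 10.7%, and Maff was at 0.37 ± 0.38 (adjusted p = 0.579). In Kupffer nuclei, the liver macrophages, 6 of the 8 members tested were higher in CS than in L, against 1.08% of genes, with Fos at log2 4.08 ± 0.31 and Jun at 3.53 ± 0.27. In stellate nuclei, with 7 CS samples of at least 10 nuclei, 6 of 8 were higher, against 0.903%, with Jun at 4.52 ± 0.30, or 3.83 in samples of at least 20 nuclei, and Atf3 at 3.97 ± 0.39, where the median of all genes was -0.37 and moved to -0.01 with the other scaling. In both of these types Fosl2 and Maff did not pass, and Fosl1 did not reach the count filter. Hepatocyte markers were at 2040 to 4477 CPM in endothelial nuclei of L and at 2051 to 7308 CPM in those of CS, at 2254 to 5233 and 1262 to 9816 CPM in Kupffer nuclei, and at 1878 to 5969 and 2313 to 7498 CPM in stellate nuclei, and the part of hepatocyte RNA in these rises was not tested. Mitochondrial transcripts were at 2631 to 4450 CPM in endothelial nuclei of L and 3974 to 20801 CPM in those of CS, at 3266 to 4874 and 1677 to 14597 CPM in Kupffer nuclei and at 1722 to 3269 and 1931 to 4615 CPM in stellate nuclei, and their part was not tested either.

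Atf3 differed most between hepatocytes and endothelial cells. In the test of the difference between the 2 cell types of the same samples, its rise from L to CS was smaller in endothelial than in hepatocyte nuclei by 3.37 ± 0.34 on the log2 scale (adjusted p = 1.23e-07), 3.98 ± 0.40 (3.12 with the pool in the model) against 7.13 ± 0.34 in the separate fits. Fos (-1.40 ± 0.31, adjusted p = 0.00593) and Fosb (-1.25 ± 0.37, adjusted p = 0.0479) also rose less in endothelial nuclei, so 3 members were lower, against 2.87% of genes. Jund rose more there (1.51 ± 0.21, adjusted p = 2.18e-05), alone among the members, against 0.926%. For the other 5 no difference was called, with Jun at -0.52 ± 0.22 (adjusted p = 0.242) and Junb at 0.20 ± 0.29 (adjusted p = 0.817). With the hepatocyte sums thinned to the depth of the endothelial sums, Fos (-1.18, adjusted p = 0.139) and Fosb (-1.18, adjusted p = 0.375) were no longer called, and Fosb was also lost with the scaling of DESeq2 (-1.17, adjusted p = 0.0883).

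On the scale of CPM without TMM, which allows cell types to be set side by side, Atf3 in CS was at 437 to 1307 CPM in hepatocytes (median 898), 72.4 to 550 in stellate (median 237), 47.9 to 643 in endothelial (median 145) and 73.9 to 1087 in Kupffer nuclei (median 123). In L hepatocytes had the lowest level, with a median of 24.6 CPM in Kupffer, 11.7 in endothelial, 8.05 in stellate and 6.99 in hepatocyte nuclei. The order of the other types depended on the summary, since UMIs summed over samples put Kupffer nuclei second in CS at 274 CPM. In both groups the ranges of neighboring cell types in these orders overlapped. Jun in CS was at 1100 to 2252 CPM in hepatocytes, 357 to 1449 in stellate, 362 to 1517 in endothelial and 222 to 939 in Kupffer nuclei, with medians of 1586, 533, 635 and 356. Only the hepatocyte and Kupffer ranges were apart. Jun in L had medians of 58.7 CPM in hepatocytes, 35.1 in Kupffer, 31.3 in endothelial and 18.7 in stellate nuclei. Fos in CS had medians of 298 CPM in hepatocytes, 281 in endothelial, 179 in Kupffer and 138 in stellate nuclei, with overlapping ranges, and in L its medians were 3.79, 8.67, 10.3 and 4.10 CPM. Jund was lower in endothelial than in hepatocyte nuclei of L, 7.68 to 23.2 against 38.9 to 74.4 CPM, without overlap, but at 195 to 605 against 250 to 470 CPM in CS, where the ranges overlapped. In PH, Fosl1 was at 34.1 to 92.3 CPM in hepatocytes and 8.79 to 39.9 in endothelial nuclei, while Fosl2 was at 59.2 to 123 and 42.0 to 182 CPM.

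**Figure D4:**
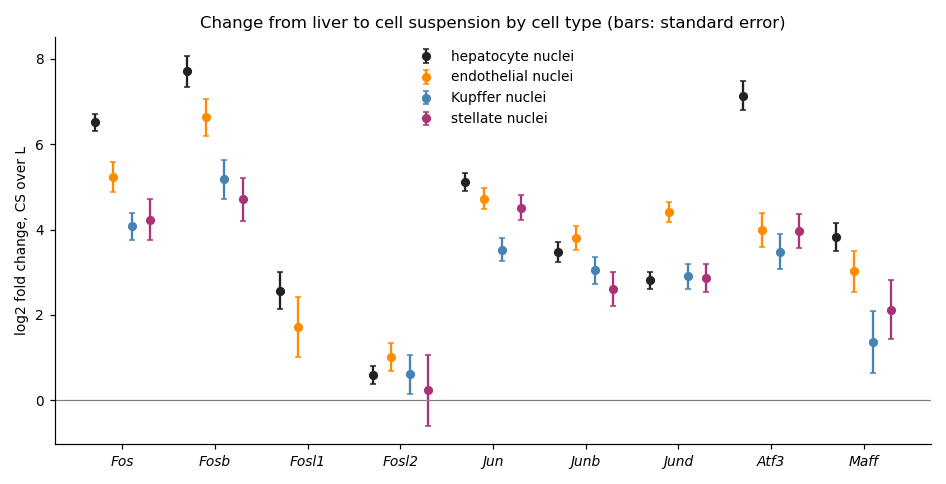
Log2 fold change of CS over L with its standard error for each gene in hepatocyte, endothelial, Kupffer and stellate nuclei, from separate fits. Fos, Fosb, Jun, Junb, Jund and Atf3 are above 0 in the 4 cell types, and Atf3 is highest in hepatocytes at 7.13.

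Further genes of the pathway were taken from fixed lists and compared in hepatocyte nuclei. Of 13 other AP-1 and related basic leucine zipper genes, 3 were higher and 1 lower in CS than in L (median log2 0.19), where 8.15% of all genes were higher and 14.2% lower. In PH over L 5 were higher and 4 lower (median 0.10), against 27.4% and 26.3% of all genes, and in PH over CS 2 were higher and 3 lower (median -0.06), against 26.9% and 23.5%. Creb5, which encodes a CRE-binding partner of Jun, was at 2.64 to 13.8 CPM in L, 5.16 to 53.8 in CS and 358 to 847 in PH. PH lay above both other groups without overlap, at log2 6.72 ± 0.40 over L (adjusted p = 3.98e-15) and 4.58 ± 0.36 over CS (adjusted p = 3.28e-12). Mafk, a small Maf gene like Maff, was higher than in L by 1.22 ± 0.13 in CS and 1.37 ± 0.12 in PH on the log2 scale. Bach1, a repressor that dimerizes with small Maf proteins, was higher in CS by 1.18 ± 0.20, and Bach2 was lower in PH than in L by 1.21 ± 0.24.

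Upstream, MAP kinases and the SRF, ELK and CREB factors relay signals to the Fos and Jun promoters. Of 23 such genes 1 was higher and 2 lower in CS than in L, against 8.15% and 14.2% of all genes. In PH over L 8 were higher and 5 lower, against 27.4% and 26.3%, and in PH over CS 9 were higher and 7 lower, against 26.9% and 23.5%. The medians were 0.00, 0.12 and 0.02. The gene that rose on isolation was Srf, serum response factor, at 2.69 to 4.14 CPM in L and 16.6 to 29.3 CPM in CS (log2 2.68 ± 0.15, adjusted p = 6.92e-14). Creb1 was lower in CS (log2 -0.35 ± 0.10, adjusted p = 0.0107). In PH over L the largest differences were those of Map2k6, a kinase that activates p38, at -2.76 ± 0.36, Elk3, a ternary complex factor, at 2.44 ± 0.18, and Map3k8 at 2.22 ± 0.18.

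Of 20 textbook AP-1 target genes, 7 were higher and 0 lower in CS than in L (median log2 0.79), against 8.15% and 14.2% of all genes, and 11 higher and 0 lower in PH than in L (median 1.56), against 27.4% and 26.3%. In PH over CS 9 were higher and 2 lower (median 1.15), against 26.9% and 23.5%. Hmox1, heme oxygenase, was at 0.973 to 5.05 CPM in L, 4.65 to 75.1 in CS and 114 to 264 in PH. L and CS overlapped and PH stood above both, with log2 fold changes of 3.30 ± 0.37 for CS over L (adjusted p = 7e-08) and 5.67 ± 0.40 for PH over L. Vegfa, the vascular growth factor, rose by 0.95 ± 0.14 in CS relative to L. Plaur, the urokinase receptor, was 3.65 ± 0.28 higher in PH than in CS, and Ccl2, a monocyte chemokine, 6.90 ± 0.73 higher in PH than in L, where it rests on 20 UMIs. Such genes answer to many factors, and whether AP-1 proteins acted on them was not tested.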

How the data were processed

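Nuclei were sorted, tagged by hashtag and sequenced in 6 droplet pools. Per the labels and the methods of the study, the authors demultiplexed the reads with bcl2fastq 2.19.0, counted UMIs with Salmon Alevin and alevin-fry on GRCm38, and assigned hashtags, removed doublets and clustered the nuclei before deposit. The deposited matrices hold whole-number counts of UMIs per gene and barcode, kept apart as spliced, unspliced and ambiguous, and a deposited table gives each nucleus its sample, group and cluster. No deposited fold change was used.

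UMIs were summed per hashtag sample (24 samples) and cell type, and samples with under 10 nuclei of a type were left out. Genes with at least 10 counts were fitted with the quasi-likelihood test of edgeR 4.0.16 (R 4.3.3; TMM, design by group, as in the study's pseudo-bulk design) with Benjamini-Hochberg adjustment over all genes at 0.05. DESeq2 1.42.0 was an alternative. Standard errors were derived from the log2 fold change and the test statistic, and are unreliable where the change is very small. Shares were compared by exact permutation, without pairing samples by mouse. The scripts were tested on simulated data. The 9 genes, the 3 further lists, of which the genes named were up to 3 with the largest called change among those at 10 CPM or more in a group, per comparison, and the tests were chosen with earlier results of these data known. For Fos, Jun and Atf3 the 3 nearest genes were named. A gene that this rule also names is not reported here. The samples of a mouse come from the same liver, as the methods state. Over 8617 genes the deviations of L and CS samples of the same mouse from their group means correlated at 0.343 to 0.850 (other mice, median -0.0846), those of L and PH at -0.0515 to 0.131 and those of CS and PH at -0.170 to 0.129. Alternatives were another scaling, filters, thinning to equal depth, the pool as covariate, the replicate block and leaving out each mouse. Hepatocyte nuclei held a median of 1818 to 13996 UMIs per sample. Levels are limited by counting error at the few UMIs of Fosl1 and Fosb in L.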

Additional observations from a re-analysis of the deposited data

Results flagged for a closer look

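In 4 of 27 sets of 8 hepatocyte samples, the highest sample lay farther from the others than Dixon's test allows at 95%, which chance gives in about 1 of 20 sets. Fosl1 was at 0.645 CPM in the L sample of mouse 5, against a median of 0.257 and a next value of 0.357. Fosl2 was at 24.1 CPM in the L sample of mouse 3 and at 36.1 CPM in its CS sample, against medians of 10.8 and 17.0 and next values of 12.5 and 18.9, so both high values came from the same liver. Maff was at 247 CPM in the CS sample of mouse 4, against a median of 104 and a next value of 132.

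The change from L to CS differed between endothelial and hepatocyte nuclei by edgeR's quasi-likelihood test of the interaction for 4 genes. Endothelial less hepatocyte, the log2 difference was -3.37 for Atf3, -1.40 for Fos, -1.25 for Fosb and 1.51 for Jund. In liver Jund was at 7.68 to 23.2 CPM without TMM in endothelial nuclei and at 38.9 to 74.4 CPM in hepatocyte nuclei. With the hepatocyte sums thinned to the endothelial depth Fos and Fosb were not called, nor was Fosb with another scaling. The causes were not tested.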

How the results depend on the processing

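Of 1003 values of single members under other settings, 972 kept their side of the threshold, 26 were no longer called, 5 became called and 0 called changes reversed. Uncalled values could change sign. Stellate Fosl2 in CS over L went from log2 0.24 to -0.50 in samples of at least 20 nuclei. Counts of members called moved by more than 1.5 times in these cases. Endothelial PH over CS gave 1 member higher (2 before) with a stricter count filter or with the pool as covariate. Unspliced against spliced in PH over L gave 0 higher (1 before) and 1 lower (2 before) with ambiguous UMIs added to spliced. Endothelial against hepatocyte gave 1 lower (3 before) with the hepatocyte sums thinned. The replicate block gave 9 members higher in hepatocyte CS over L, 9 in PH over L, and 2 higher and 7 lower in PH over CS, and among the hepatocyte, all-nuclei, endothelial, spliced and unspliced calls, for which it was run, it changed that of unspliced Fosl2 and no other. Leaving out each mouse, the hepatocyte counts were 8 to 9, 8 to 9, and 2 higher with 6 to 7 lower. With 2000 UMIs per nucleus, 8 rather than 9 members were found in more nuclei of CS than of L. Thinned hepatocyte sums left Fosb in PH over L (log2 1.00, adjusted p = 0.0896, edgeR's quasi-likelihood test) and Fosl2 in CS over L (log2 0.66, adjusted p = 0.0689) uncalled. Another scaling (relative log expression) moved the share of higher among all called genes from 36.5% to 47.8% in hepatocyte CS over L, from 38.8% to 50.4% in all nuclei, from 52.1% to 69.0% in endothelial CS over L, from 45.6% to 57.0% in endothelial PH over L, from 82.8% to 94.9% in Kupffer and from 28.3% to 86.3% in stellate nuclei, where 431 calls became 226. Library sizes of all 3 states moved it from 41.2% to 78.6% for spliced and from 35.6% to 21.1% for unspliced UMIs in CS over L. For unspliced against spliced the other scaling moved it from 38.7% to 57.3% in CS over L and from 61.1% to 50.0% in PH over CS, and for endothelial against hepatocyte from 24.4% to 34.6%. The hepatocyte gene median moved from 0.02 to 0.10 in CS over L and from 0.10 to 0.20 in PH over L. The cause of these moves was not tested. Zones of the lobule were not analysed here.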

Other observations

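Biliary nuclei were too few in CS for a test, so sums over samples are given. The name joined unlike clusters. Cluster 28 held 157 L nuclei and 1 CS nucleus, with biliary markers at 3828 and stellate markers at 837 CPM. Cluster 30 held 63 L and 41 CS nuclei, with biliary markers at 11817 CPM. The L and CS values of biliary nuclei thus come largely from different clusters. Atf3 was at 2383 CPM in the biliary nuclei of CS, from 239 UMIs in 42 nuclei, against 72.7 CPM in L, from 51 UMIs, but the 1 CS sample with at least 10 such nuclei held 1033 CPM. Fos was at 748 and 68.4 CPM and Jun at 1864 and 144 CPM in CS and L. In the leukocyte nuclei of CS, Jun was at 657 CPM from 56 UMIs, against 20.6 CPM from 21 UMIs in L. These sums carry counting error and no replicate error.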
